A study of Homo sapiens with 6 samples.

Results

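The genes described here encode the core machinery and the cargo receptors of macroautophagy, 43 of the 61541 genes in the count table. They were taken as a list of symbols, each of which matched a single Ensembl ID, and the list was drawn up with earlier results of these libraries known. They were compared between 3 libraries of cells given a control short hairpin RNA (shcontrol) and 3 libraries of cells given a hairpin against RNF26 (shRNF26). All 6 libraries are labelled A498, an established line from a human clear cell renal carcinoma, grown in RPMI-1640 with serum. The labels name no time after introduction of the hairpin, no hairpin sequence and no second hairpin, and they do not say whether the replicates were separate cultures. The p-values therefore rest on the spread between these libraries alone, and that spread may be technical.

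Macroautophagy encloses cytoplasm in a double membrane that later fuses with the lysosome. A kinase complex built around RB1CC1 and ATG13 starts the process, and a lipid kinase complex around BECN1 and PIK3C3 marks the membrane with phosphatidylinositol 3-phosphate (PI3P). Conjugating enzymes then attach small ATG8 proteins (the LC3 and GABARAP families) to the growing membrane, where cargo receptors such as SQSTM1 bind them. RNF26, a ubiquitin ligase of the endoplasmic reticulum membrane, is known to ubiquitinate SQSTM1, which then recruits adaptors that include TAX1BP1 and TOLLIP. These are facts about proteins, whereas the libraries measure transcripts.

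The libraries held 16682871 to 18021718 gene counts. RNF26 had 35331, 31901 and 31928 counts in the shcontrol libraries and 1216, 1274 and 1175 in the shRNF26 libraries. Most marker genes of the labelled tissue were absent or hardly counted. Of 15 markers of renal epithelium and clear cell carcinoma, 12 had a mean below 1 CPM (counts scaled to 1000000 per library), and SLC17A3 was at 0 in all 6 libraries. The other 3 were EPAS1 at 170 ± 5.87 CPM, PAX8 at 2.90 ± 0.357 CPM and LHX1 at 2.57 ± 0.372 CPM in the shcontrol libraries. All 12 squamous epithelial markers were above that level, among them KRT5 at 583 ± 21.3 CPM and TP63 at 173 ± 7.37 CPM, but also KRT14 at 4.04 ± 0.464 CPM and IVL at 2.96 ± 0.254 CPM in the shcontrol libraries (mean ± SD, n = 3). Summed over those 12 markers, the level was 5769 to 6037 CPM in the shcontrol libraries and 3284 to 3361 CPM in the shRNF26 libraries. Fibroblast, leukocyte and endothelial lists had 6 of 8, 6 of 7 and 5 of 6 markers below 1 CPM, and PTPRC, which defines leukocytes, had at most 1 count in any library. The part of the shift in the squamous markers in the results below was not tested. In bulk RNA, fewer cells of a type and less RNA per cell cannot be told apart.

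The ATG8 transcripts are shown first because they held the largest change and because their sequences bear on how they can be counted. In GENCODE 29 the coding sequences of MAP1LC3B, on chromosome 16, and MAP1LC3B2, an LC3B copy on chromosome 12, are each 378 bases long. They differ at 2 positions, which are in capitals in the stretches below, bases 1 to 60 and 319 to 378 counted from the A of the start codon. Between those positions runs an identical stretch of 307 bases, and a read from it cannot be assigned to either gene by its sequence.
MAP1LC3B, bases 1 to 60: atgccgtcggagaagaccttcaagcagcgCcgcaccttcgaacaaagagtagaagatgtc
MAP1LC3B2, bases 1 to 60: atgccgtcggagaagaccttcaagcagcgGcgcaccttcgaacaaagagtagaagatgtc
MAP1LC3B, bases 319 to 378: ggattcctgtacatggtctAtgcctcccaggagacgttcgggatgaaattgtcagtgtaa
MAP1LC3B2, bases 319 to 378: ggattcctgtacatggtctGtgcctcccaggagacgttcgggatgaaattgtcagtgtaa
The identity of this pair was 99.5%. It was 71.2% between MAP1LC3A and MAP1LC3B, 76.8% between GABARAP and GABARAPL1, and 50.5% between MAP1LC3B and GABARAPL1.

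MAP1LC3B, the main LC3 gene and the source of the protein most used as an autophagosome marker, was 2.001-fold lower after RNF26 knockdown. It had 116, 120 and 125 CPM in the shcontrol libraries and 61.2, 59.1 and 59.7 CPM in the shRNF26 libraries, after trimmed mean of M values (TMM) scaling of library sizes. The groups were far apart, and the spread within each was small, at 120 ± 4.47 against 59.97 ± 1.09 CPM. On the log2 scale the fold change was -1.001 with an SE of 0.049 (quasi-likelihood test of edgeR, adjusted p = 4.76e-12). It ranged from -1.03 to -0.91 over 16 other ways of fitting the data and was called lower in each. Among the members it was the only gene called with a change of at least 2-fold, a size reached by 2.94% of the 14766 genes tested.

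MAP1LC3B2 had 88, 57 and 44 counts in the shcontrol libraries and 35, 36 and 30 in the shRNF26 libraries. This was a log2 fold change of -0.98 (SE 0.25, edgeR adjusted p = 0.0035), and without shcontrol replicate 1 it was -0.70. In the 6 libraries it made up 2.11% to 4.19% of the counts of the pair. When its counts were added to those of MAP1LC3B, a check chosen after seeing the data, the log2 fold change was still -1.0005. The value for MAP1LC3B2 alone is uncertain, since reads of MAP1LC3B can be placed there.

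The other ATG8 genes changed less, or were hardly counted. GABARAPL2, also known as GATE-16, had 33.8, 36.2 and 34.4 CPM in the shcontrol libraries and 29.3, 30.3 and 27.6 CPM in the shRNF26 libraries. The groups did not overlap, and the log2 fold change came to -0.26 (SE 0.069, edgeR adjusted p = 0.0055), a call lost with scaling by total counts alone (-0.17). GABARAPL1 had 39.8 ± 1.81 and 39.9 ± 0.145 CPM, a log2 difference of 0.00 (SE 0.061). GABARAP counts were 14, 27 and 65 with the control hairpin against 37, 28 and 34 with the RNF26 hairpin, and the control range enclosed the knockdown range. Its log2 fold change of -0.19 (SE 0.38) became 0.60 without shcontrol replicate 3 and -0.59 without shcontrol replicate 1. In GENCODE 29, 691 of the 2266 exon bases of GABARAP are shared with AC120057.2 on the same strand, so its low counts may not be its level. MAP1LC3A had 5, 5 and 6 counts against 2, 2 and 3 and was below the minimum for testing.

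**Figure D1:**
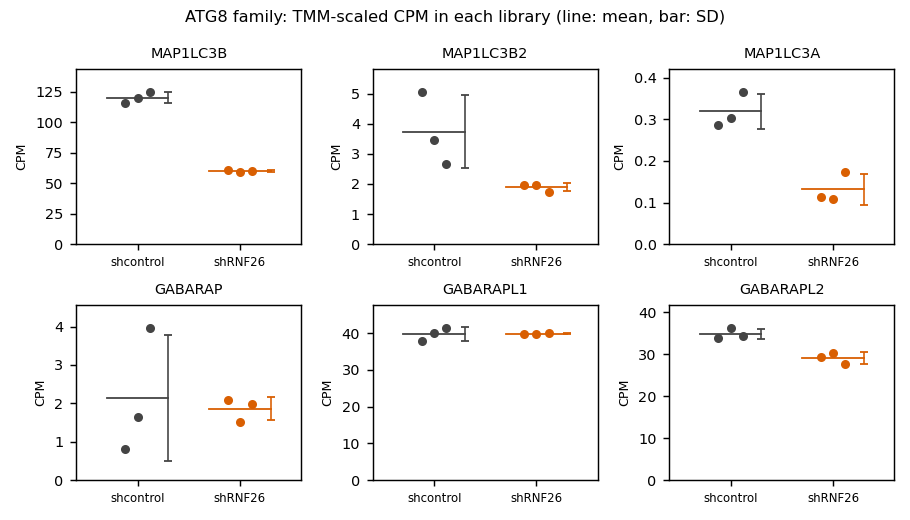
TMM-scaled CPM of the 6 ATG8 genes (vertical axes, each from 0) in 3 shcontrol and 3 shRNF26 libraries (points), with the mean (line) and SD (bar). MAP1LC3B lies at 116 to 125 CPM in the control and 59.1 to 61.2 CPM in the shRNF26 libraries, GABARAPL1 is level, and 1 control library sets the mean of GABARAP.

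Across the whole set, decreases outnumbered increases. Of the 43 members 42 could be tested, and 17 fell, 5 rose and 20 did not pass an adjusted p of 0.05. Over all genes tested, 22.6% were called lower and 18.9% higher, or 41.4% in either direction, against 40.5%, 11.9% and 52.4% of the tested members. The median log2 fold change was -0.13 for the members and 0.01 for all genes tested. Most changes were small, since the median absolute log2 fold change of the members was 0.19, as it was over all genes. The groups did not overlap for 25 members, or 59.5%, against 50.1% of all genes tested. With scaling by total counts alone the members split into 8 higher and 10 lower, with 4451 genes higher and 2266 lower overall in place of 2785 and 3332. The median of the members was again 0.14 below that of all genes. A change of scaling shifts all genes nearly alike and so cannot move that gap. The tested members had a median control mean of 48.1 CPM, well above the minimum for testing. With a minimum mean of 5 CPM, 5669 of 11359 genes were called, 2954 of them lower. Of 40 members, 16 were then lower and 5 higher. The shares called in either direction were close under that filter, while members were still lower more often. The gap narrowed, with medians of -0.09 for the members and 0.01 for all genes. Without shRNF26 replicate 2 the 5 rises became 3.

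**Figure D2:**
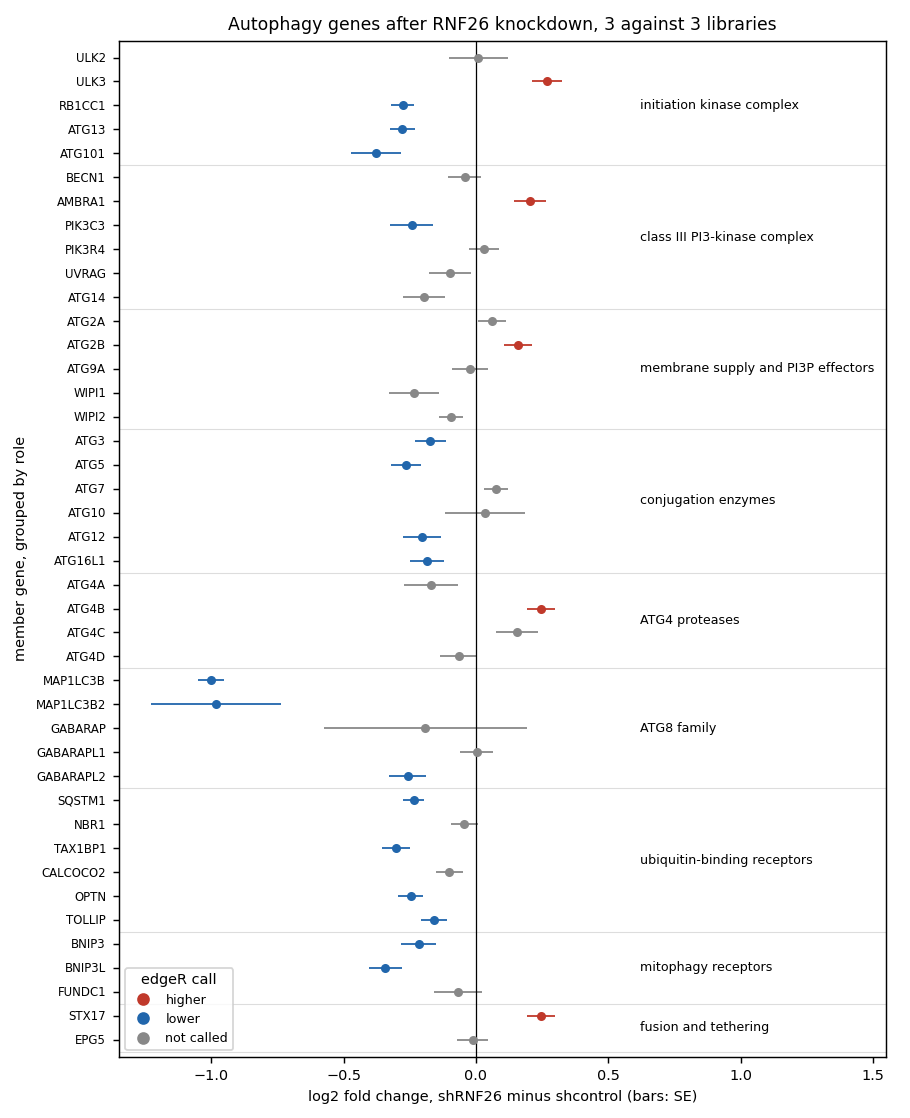
Log2 fold change (horizontal axis, shRNF26 minus shcontrol, bars are SE) of the 42 tested members, grouped by role and coloured by the edgeR call. MAP1LC3B and MAP1LC3B2 lie near -1, the other members called lower lie between -0.38 and -0.16, and the 5 members called higher lie between 0.16 and 0.27.

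**Figure D3:**
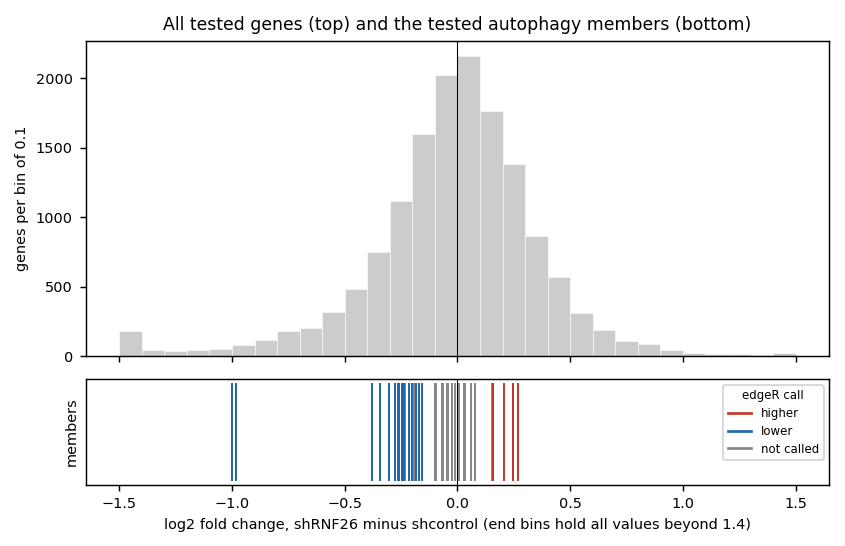
Number of genes per bin of log2 fold change for all 14766 genes tested (top, bars) and the position of each tested member (bottom, lines coloured by call). Values beyond the ends were added to the end bins, and the members lie within the bulk of all genes apart from MAP1LC3B and MAP1LC3B2.

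The initiation kinase complex fell in 3 of its 5 listed genes (60%), against 22.6% of all genes tested. With so few genes in each role group, such shares are coarse. RB1CC1, also called FIP200, is the scaffold of that complex. It had 154, 158 and 155 CPM in the shcontrol libraries and 130, 123 and 132 CPM in the shRNF26 libraries (-0.28 on the log2 scale, SE 0.044, edgeR adjusted p = 4.86e-05). ATG13, its regulatory subunit, had 106, 106 and 109 CPM against 85.8, 88.7 and 90.3 CPM, a log2 fold change of -0.28 (SE 0.046). ATG101, which stabilizes ATG13, had 28.8, 26.9 and 23.9 CPM against 22.4, 21.2 and 17.6 CPM, a log2 fold change of -0.38 (SE 0.095). In all 3 genes each control library was above each knockdown library, and the calls held in all 16 alternatives.

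The kinase genes listed in that group, ULK2 and ULK3, did not fall, and ULK1 was not among the members. ULK3, a kinase related to the initiating ULK kinases and known also from Hedgehog signalling, had 46.1, 45.4 and 43.2 CPM in the shcontrol libraries. In the shRNF26 libraries it had 53.1, 53.6 and 55.5 CPM, all above the controls, and its log2 fold change of 0.27 (SE 0.057, edgeR adjusted p = 8.7e-04) was the largest rise among the members. The call held in all 16 alternatives. ULK2 had 10.0 ± 0.891 and 10.1 ± 0.290 CPM, with overlapping groups and a log2 fold change of 0.01 (SE 0.11).

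Promoter windows from RefSeq (GRCh38.p14, 250 bases before to 50 after the start) were matched for 36 of the 43 members and are shown for the members with the largest fall and the largest rise. For MAP1LC3B the window is chr16:87392086-87392385 on the plus strand, and for ULK3 it is chr15:74843107-74843406 on the minus strand. Capitals mark matches, on either strand, to 6 motifs that were searched. They mark TGACNNNGC, the core of the antioxidant response element, in both windows and CACGTG, the E-box core, in ULK3 alone of these 2.
MAP1LC3B: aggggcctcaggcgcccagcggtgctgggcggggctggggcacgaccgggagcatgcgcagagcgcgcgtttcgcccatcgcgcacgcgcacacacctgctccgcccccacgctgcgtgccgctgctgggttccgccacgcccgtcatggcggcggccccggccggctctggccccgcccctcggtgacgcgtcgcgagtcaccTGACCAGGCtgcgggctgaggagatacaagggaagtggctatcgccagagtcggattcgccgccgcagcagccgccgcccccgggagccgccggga
ULK3: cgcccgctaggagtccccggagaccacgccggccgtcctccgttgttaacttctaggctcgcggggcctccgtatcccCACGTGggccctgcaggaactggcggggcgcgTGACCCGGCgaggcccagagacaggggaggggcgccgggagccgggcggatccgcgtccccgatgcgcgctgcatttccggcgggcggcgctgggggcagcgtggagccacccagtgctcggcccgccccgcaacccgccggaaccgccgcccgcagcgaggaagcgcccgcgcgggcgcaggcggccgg
The antioxidant core was found in 5 of the 36 windows (13.9%) and in 13.3% of all 35116 windows of that length. The E-box core was found in 4 of the 36 (ULK3, ATG14, ATG3 and BNIP3), or 11.1%, against 7.26% of all. The cyclic AMP response element TGACGTCA occurred in GABARAPL1 alone, against 1.85% of all. The palindromic CLEAR element of TFEB and TFE3 (which contains the E-box core), TGATGNAA (the C/EBP-ATF core) and TGANTCA (AP-1) were in 0 of the 36 windows, against 0.353%, 3.62% and 7.71% of all. These are matches of letters in a short window and not binding sites.

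The class III PI3-kinase complex makes the PI3P that marks the forming membrane, and its genes moved in different directions or stayed level. PIK3C3, the catalytic subunit, had 27.3, 29.5 and 29.2 CPM in the shcontrol libraries and 24.2, 22.1 and 26.4 CPM in the shRNF26 libraries. The log2 ratio of -0.24 (SE 0.080) had an edgeR adjusted p of 0.020. That call was lost without shcontrol replicate 2 (-0.23), shRNF26 replicate 1 (-0.24) or shRNF26 replicate 2 (-0.18), and with scaling by total counts (-0.15) or by the upper quartile (-0.19). AMBRA1, which activates the complex and also serves a cyclin D ubiquitin ligase, had 65.0, 64.7 and 61.9 CPM against 68.6, 80.4 and 71.9 CPM. All 3 shRNF26 libraries were above the controls, with a log2 fold change of 0.20 (SE 0.060, edgeR adjusted p = 0.010) that was not called without shRNF26 replicate 2 (0.14).

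The remaining genes of this complex did not pass. BECN1, the scaffold, had a log2 fold change of -0.04 (SE 0.062), PIK3R4 of 0.03 (SE 0.057) and UVRAG, the partner that replaces ATG14 in the endosomal form, of -0.10 (SE 0.080). ATG14, which directs the complex to autophagy, had 25.8 ± 0.946 CPM in the control and 22.5 ± 1.32 CPM in the shRNF26 libraries without overlap. The log2 fold change of -0.20 (SE 0.078, edgeR adjusted p = 0.0504) missed the threshold. It was called lower without shcontrol replicate 1 (-0.23) or shRNF26 replicate 2 (-0.24), and with a robust fit or the replicate number as a block (each -0.20).

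Genes for membrane supply and PI3P binding were mostly level. ATG2B, a lipid transfer protein that feeds the growing membrane, had a log2 fold change of 0.16 (SE 0.054, edgeR adjusted p = 0.024). That call was lost without shcontrol replicate 3 (0.13), shRNF26 replicate 2 (0.16) or shRNF26 replicate 3 (0.14). Its relative ATG2A had 0.06 (SE 0.054), which was called with scaling by total counts (0.15), and the lipid scramblase ATG9A had -0.02 (SE 0.066). The PI3P-binding proteins WIPI1 and WIPI2 had log2 fold changes of -0.23 (SE 0.094, edgeR adjusted p = 0.054) and -0.09 (SE 0.046). WIPI1 was called lower without shcontrol replicate 2 (-0.29) or shRNF26 replicate 3 (-0.30) and with the replicate number as a block (-0.23).

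Of the 6 conjugation genes, 4 fell (66.7%, against 22.6% of all genes tested). ATG5, which is joined to ATG12 to form part of the ligase for ATG8 proteins, had 57.5, 56.3 and 60.3 CPM in the shcontrol libraries and 48.1, 48.5 and 48.4 CPM in the shRNF26 libraries. The groups did not overlap, and the log2 fold change came to -0.26 (SE 0.055, edgeR adjusted p = 7.83e-04), called in all 16 alternatives. ATG12, the ubiquitin-like partner, had 42.1, 47.6 and 52.6 CPM against 42.5, 40.5 and 40.4 CPM, so that shcontrol replicate 1 lay within the knockdown range. Its log2 fold change came to -0.20 (SE 0.072, edgeR adjusted p = 0.030), and the call was lost without shcontrol replicate 2 (-0.20), shcontrol replicate 3 (-0.13), shRNF26 replicate 2 (-0.19) or shRNF26 replicate 3 (-0.19).

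ATG16L1, which places the ligase on the membrane, had 42.1, 42.99 and 41.7 CPM in the shcontrol libraries and 38.7, 38.5 and 34.3 CPM in the shRNF26 libraries. The log2 fold change came to -0.18 (SE 0.065, edgeR adjusted p = 0.028), a call lost without shcontrol replicate 2 (-0.17) or shRNF26 replicate 3 (-0.13) and with DESeq2 (-0.18). ATG3, the conjugating enzyme for ATG8 proteins, had 46.1, 46.3 and 48.4 CPM against 41.6, 41.6 and 41.8 CPM. Its log2 fold change of -0.17 (SE 0.058, edgeR adjusted p = 0.023) had groups without overlap. The call was nevertheless lost in 8 of 16 alternatives, among them the fits without shcontrol replicate 3 (-0.15) or without shRNF26 replicate 1, 2 or 3 (each -0.17). Scaling by total counts or by the upper quartile also ended the calls of ATG3 (-0.08 and -0.12), ATG12 (-0.11 and -0.15) and ATG16L1 (-0.09 and -0.13). ATG7, the activating enzyme, had a log2 fold change of 0.08 (SE 0.045) and was called higher under those scalings (0.17 and 0.13). ATG10, the conjugating enzyme for ATG12, was at 5.37 ± 0.375 and 5.50 ± 0.392 CPM.

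The ATG4 proteases trim ATG8 proteins before conjugation and release them from membranes afterwards. ATG4B, the main protease for LC3, had 65.5, 67.5 and 61.6 CPM in the shcontrol libraries and 78.4, 77.8 and 74.4 CPM in the shRNF26 libraries. It rose without overlap of the groups (0.25 on the log2 scale, SE 0.053, edgeR adjusted p = 0.0011), in the direction opposite to MAP1LC3B, and the call held in all 16 alternatives. ATG4A, ATG4C and ATG4D had log2 fold changes of -0.17 (SE 0.10), 0.15 (SE 0.080) and -0.07 (SE 0.070) and did not pass. ATG4C was called higher with scaling by total counts (0.25) or by the upper quartile (0.21).

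Among the receptors that bind ubiquitinated cargo, 4 of 6 fell (66.7%) and 0 rose, against 22.6% lower and 18.9% higher over all genes tested. SQSTM1, also called p62, was the member with the highest count in each library. It had 377, 347 and 371 CPM in the shcontrol libraries and 306, 313 and 313 CPM in the shRNF26 libraries, without overlap. The log2 fold change came to -0.24 (SE 0.040, edgeR adjusted p = 1.09e-04). TAX1BP1, a receptor and adaptor that binds LC3 and ubiquitin, had 100.4, 109 and 107 CPM against 80.9, 85.3 and 90.2 CPM, with the highest knockdown library still below the lowest control library. OPTN, the receptor optineurin, had 86.9, 86.0 and 85.1 CPM against 73.3, 72.0 and 72.2 CPM, with a gap between the groups wider than the spread of either. Its log2 fold change came to -0.25 (SE 0.048, edgeR adjusted p = 3.95e-04). The calls of SQSTM1, TAX1BP1 and OPTN held in all 16 alternatives.

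TOLLIP, a ubiquitin-binding adaptor of endosomes, was 1.12-fold lower (-0.16 on the log2 scale, SE 0.050, edgeR adjusted p = 0.015). That call was lost without shRNF26 replicate 1 (-0.15) and with scaling by total counts (-0.07) or by the upper quartile (-0.10). CALCOCO2, also called NDP52, had 73.7 ± 1.73 and 68.7 ± 0.654 CPM without overlap, and its log2 fold change of -0.10 (SE 0.050, edgeR adjusted p = 0.12) did not pass. NBR1, a receptor related in build to SQSTM1, had 128 ± 8.73 and 124 ± 4.05 CPM with overlapping groups (log2 fold change -0.04, SE 0.051). SQSTM1 shares exon bases with MGAT4B and MRNIP on the opposite strand in GENCODE 29, and TAX1BP1 with JAZF1.

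Of the mitophagy receptors, which sit on the outer mitochondrial membrane, 2 of 3 fell (66.7%, against 22.6% of all genes tested). BNIP3L, also called NIX, had 74.5, 68.9 and 76.8 CPM in the shcontrol libraries and 59.5, 52.4 and 61.9 CPM in the shRNF26 libraries. The groups did not overlap, and the log2 fold change of -0.34 (SE 0.064, edgeR adjusted p = 2.82e-04) was called in all 16 alternatives. BNIP3, its relative and a known target of hypoxia-inducible factor, had 59.2, 53.3 and 61.9 CPM against 53.4, 48.1 and 48.5 CPM, so that the groups overlapped at shcontrol replicate 2. The fall was -0.22 on the log2 scale (SE 0.065, edgeR adjusted p = 0.011). The call was lost without shcontrol replicate 3 (-0.17) or shRNF26 replicate 2 (-0.19), and with scaling by total counts (-0.13). FUNDC1 had a log2 fold change of -0.07 (SE 0.091) and did not pass.

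**Figure D4:**
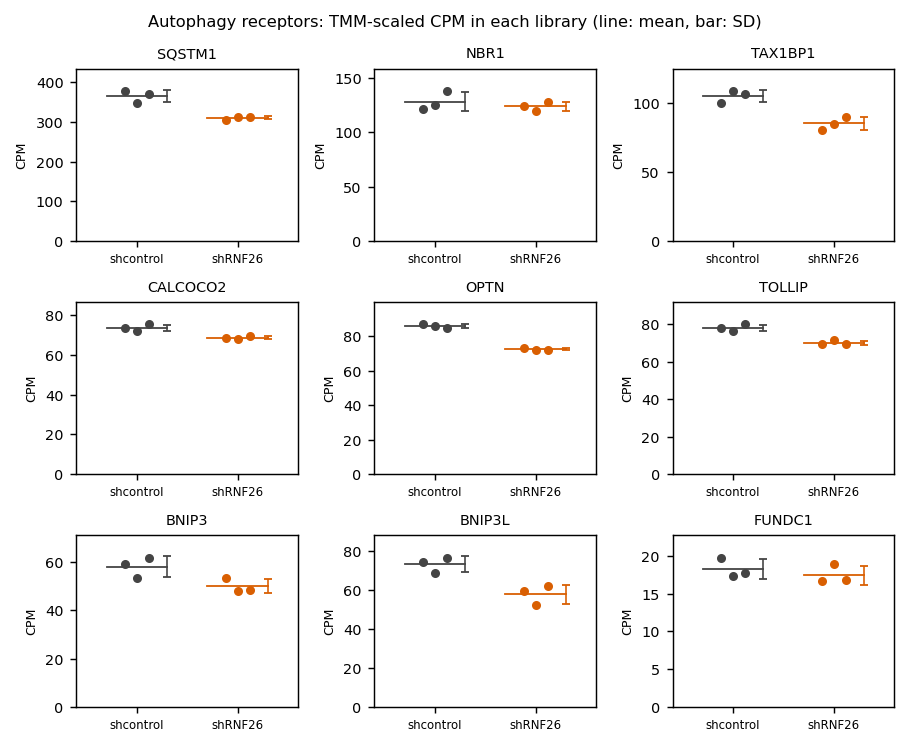
TMM-scaled CPM of the 6 ubiquitin-binding receptors and the 3 mitophagy receptors (vertical axes, each from 0) in 3 shcontrol and 3 shRNF26 libraries (points), with the mean (line) and SD (bar). SQSTM1, TAX1BP1, OPTN, TOLLIP, CALCOCO2 and BNIP3L show no overlap of the groups, and NBR1, BNIP3 and FUNDC1 do.

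At the last step, STX17, the SNARE protein that drives fusion of the closed autophagosome with the lysosome, rose. It had 57.5, 62.1 and 63.5 CPM in the shcontrol libraries and 71.4, 72.4 and 73.3 CPM in the shRNF26 libraries. The log2 fold change came to 0.25 (SE 0.054, edgeR adjusted p = 0.0012), called in all 16 alternatives. EPG5, a tether that gives this fusion its specificity, had 42.6 ± 0.772 and 42.3 ± 0.533 CPM.

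Per kilobase of exon, SQSTM1 had the highest level of the 43 members in both groups, at 47.7 ± 2.06 CPM per kb in the control and 40.6 ± 0.539 CPM per kb in the shRNF26 libraries. MAP1LC3B ranked 2 in the shcontrol libraries at 22.6 ± 0.841 CPM per kb and 15 in the shRNF26 libraries at 11.3 ± 0.205 CPM per kb. RB1CC1 followed it in the shcontrol libraries at 20.4 ± 0.290 CPM per kb, beyond the spread of either gene. Next came BNIP3L at 17.0 ± 0.942, OPTN at 16.7 ± 0.178 and ATG4D at 15.9 ± 1.22 CPM per kb, which were within their spreads of each other. STX17 moved from rank 12 to rank 4 and ULK3 from 13 to 3. In the shRNF26 libraries ULK3 (15.4 ± 0.363), STX17 (15.3 ± 0.197) and ATG4D (15.2 ± 0.427 CPM per kb) were within their spreads of each other. The lowest of the tested members were PIK3C3, ULK2, ATG10 and GABARAP, at 1.89 CPM per kb or less in the shcontrol libraries. Lengths are those of the merged exons in GENCODE 29, which need not be the annotation behind the counts.

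Members that fell were found with and without exon overlap with other genes. Of 22 members that share at least 1 exon base with another gene in GENCODE 29, 9 fell and 3 rose. Of the other 20 that were tested, 8 fell and 2 rose. The median log2 fold changes were -0.13 in either subset. The sources used here do not give the strand setting of the counting, so reads from a gene and its partner on the other strand cannot be told apart. Of the 13 members whose calls held throughout, ATG13, ATG101, ATG4B, MAP1LC3B, SQSTM1, TAX1BP1, OPTN, BNIP3L and STX17 have such a partner.

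Other autophagy genes were taken from 5 lists of 77 genes in all, and of the 73 tested 11 rose and 23 fell. The share called was 46.6%, near the 41.4% of all genes tested. With scaling by total counts alone 22 were higher and 19 lower, so that the balance turned, and with upper quartile scaling 17 were higher and 21 lower. The count of 11 became 7 without shcontrol replicate 2 or without shRNF26 replicate 1. Among 18 tested core and accessory genes 9 fell and 2 rose (61.1% called). VMP1, an endoplasmic reticulum protein needed to form autophagosomes, fell by 0.79 on the log2 scale (SE 0.037), from 765 ± 26.7 CPM to 442 ± 7.26 CPM. NRBF2, a subunit of the PI3-kinase complex, fell by 0.60 on the log2 scale, the PI3P-binding protein WDR45 by 0.45, and BCL2L1, which encodes a BECN1-binding survival protein, by 0.65. Of 13 tested genes for fusion with the lysosome 4 rose and 3 fell (53.8% called). VPS41 and VPS16, subunits of the tethering complex HOPS, had log2 fold changes of 0.34 and 0.33, and the SNARE gene YKT6 of -0.38. The fall of VAMP7 (-2.02, SE 0.58) rested on shcontrol replicate 3, which held 143 of its counts, and was -0.39 and not called without that library.

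Among 18 tested genes for other selective receptors, 2 fell and 1 rose, or 16.7% called. PINK1, the kinase that starts ubiquitin-dependent mitophagy, had a log2 fold change of -0.34 (SE 0.086), and SEC62, a receptor for the endoplasmic reticulum, of -0.26 (SE 0.051). PHB2 had 0.12, a call lost without shcontrol replicate 2 (0.11), shcontrol replicate 3 (0.10), shRNF26 replicate 1 (0.10) or shRNF26 replicate 2 (0.11). Of 14 tested transcription factors known to act on autophagy genes, 7 fell and 2 rose (64.3% called). ATF4, a stress factor with MAP1LC3B and SQSTM1 among its known targets, fell by 0.99 on that scale (SE 0.037), from 549 ± 15.0 CPM to 276 ± 3.50 CPM, and DDIT3 by 1.97. MITF had -0.76 and ZKSCAN3, described as a repressor of autophagy genes, 0.61. TFEB, the best known activator of these genes, was at 6.02 ± 1.25 and 5.71 ± 1.18 CPM and did not pass. TFE3 was counted far more and fell, from 139 ± 5.43 CPM to 97.3 ± 3.44 CPM. Its log2 fold change of -0.52 (SE 0.047, edgeR adjusted p = 5.25e-08) was called in all 16 alternatives. Among 10 tested AMPK subunits and upstream kinases 2 rose and 2 fell, and these 40% are close to the share called over all genes. CAB39, which supports the AMPK-activating kinase STK11, had -0.76 (SE 0.043), its partner STRADA 0.50 (SE 0.12), PRKAB2 -0.33 and CAMKK2 0.26. In GENCODE 29, VMP1, BCL2L1, PINK1, SEC62, PHB2 and DDIT3 share exon bases with genes on the opposite strand, and WDR45, VPS16 and STRADA with genes on their own strand. The part of any of these genes in the changes of the members was not tested.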

How the data were processed

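RNA was measured in 6 libraries labelled A498, 3 per group, with groups read from the titles. A table deposited by the authors lists 61541 genes. Although it is named for FPKM, its deposited values are whole-number gene counts with totals that differ between libraries, and they were treated as counts. Per the submitters' processing notes the build was hg19. Aligner, counter, annotation and strand setting: not given in the sources used here. The table also had 2 blank rows, holding 0% of the counts, which were left out. Symbols came from a gene name table for 61369 IDs and from GENCODE 29 for 159.

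The 14766 genes whose mean CPM reached 1 hold 99.7% of the counts. They were fitted in R 4.3.3 with edgeR 4.0.16 and its two-sided quasi-likelihood test after TMM scaling. Benjamini-Hochberg adjustment ran over the 14766 genes, and calls were made at 0.05. Each SE was derived from the fold change and its F statistic. Where a library has 0 counts, counting error alone allows up to 3 (0.166 to 0.180 CPM). Replicates differed by more than sampling noise (chi-square per degree of freedom 2.31 to 4.98 within groups). On simulated counts for this comparison over 14766 genes, with 50 genes changed at each size, the share recovered was 52% for 1.3-fold changes, 72% for 1.5-fold, 88% for 2-fold and 100% for 4-fold, and 13 of 169 calls (7.69%) were false. Far fewer genes were changed there than the 41.4% called in the libraries, so these rates need not hold for the real comparison.

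The members and lists were chosen with earlier results of these data known. Called members among the 20 largest changes are given by library, and up to 4 called genes with the largest change from each related list are named. TFEB and TFE3 were named outside that rule, after their values were seen. Alternatives were 3 scalings, 3 filters, DESeq2 1.42.0, limma 3.58.1 (voom), a robust fit, the replicate number as a block and leaving out each library.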

Additional observations from a re-analysis of the deposited data

How the results depend on the processing

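Of the 22 called members, 13 kept their call in each of the 16 alternatives that tested them (MAP1LC3B2 was not tested at a minimum mean of 5 CPM), and 9 lost it in at least 1. The sign of a called member turned in 0 cases. Of the 20 members not called, 5 were called in some alternative, and for 10 the sign turned. The median log2 fold change of the members lay between -0.16 without a filter and -0.04 with scaling by total counts alone, and it was 0.10 to 0.14 below that of all genes in each fit. The scalings shift all genes nearly alike, so they are no test of that gap. Scaling by total counts alone gave 8 members higher and 10 lower, and 22 related genes higher and 19 lower. Upper quartile scaling gave 17 related genes higher and 21 lower. Leaving out 1 library gave 3 to 5 members higher, 14 to 18 lower, 7 to 11 related genes higher, 22 to 23 lower and 4975 to 5804 genes called in all. Whether the same replicate number pairs the libraries could not be settled, because deviations within a group of 3 are tied to each other. Deviations from the group means of same-numbered libraries correlated at 0.01, -0.03 and 0.09 across genes, and shcontrol replicate 1 correlated best with shRNF26 replicate 2 (0.12). With the replicate number as a block, 5 members were higher and 19 lower. The causes of these differences were not tested. GABARAP, MAP1LC3B2 and MAP1LC3A had at most 88 counts in any library, which limits what can be read from them. The parts of depth and of the assignment of reads in these low counts were not tested.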
